A study of Mus musculus with 4 samples.

Results

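The replication-dependent histone genes are the 69 genes, of 54752 in the deposited tables, whose names begin with Hist1h, Hist2h, Hist3h or Hist4h and do not end in -ps (1 such name was left out). Members were chosen by name, and the measured value in the rule is a threshold of 0.5 FPKM (fragments scaled to transcript length and to the library's total), which 67 of the 69 exceeded in at least 1 library. The genes were picked out with earlier results of this contrast known, so their adjusted p values are given as a description and not as independent support. Total RNA from the epidermis of newborn (P0) C57BL/6 pups was sequenced, 2 Skiv2l fl/fl K14-Cre pups (Skiv2lf/fl;K14-Cre in the labels, cKO in the following) and 2 pups labelled Skiv2l ctl, 1 library per pup. Both Skiv2l fl/fl K14-Cre pups carried a loxP-flanked Skiv2l gene and a Cre recombinase driven by the keratin 14 promoter, which deletes Skiv2l, the helicase of the cytoplasmic SKI complex, in keratin 14-expressing keratinocytes and their progeny and not in other cells of the epidermis. In the study the control group pools Skiv2l fl/fl and fl/+ pups without Cre and Skiv2l fl/+ K14-Cre pups, and which of these each control pup was is not given in the sources used here.

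Nucleosomes wrap DNA around a core of H2A, H2B, H3 and H4, and the linker histone H1 binds where the DNA enters and leaves. The genes described here supply these proteins while DNA is copied in S phase, and they lie in gene clusters from which they are transcribed together. Their mRNAs are unusual in that most end in a short stem-loop, bound by the stem-loop binding protein SLBP, in place of a poly(A) tail, and they are degraded quickly when DNA synthesis stops. Some of these genes are also known to give polyadenylated transcripts in cells that have left the cycle.

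The 3′ stem-loop was searched in the annotated transcripts (GENCODE M21, GRCm38) as 16 bases that begin with GG, end with CC, pair over 6 bases and have a loop of 4 bases starting with TT. Of the 67 members annotated as protein-coding, 52 have an annotated 3′ UTR and 44 of these held the stem-loop in it, 21 to 58 bases after the stop codon (median 31). The same pattern was found in the annotated 3′ UTR of 176 protein-coding genes that are not members, among 21901 searched. Only 6 different stem-loops occurred among the 44 genes, and the histone class divides them. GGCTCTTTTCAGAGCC was found in 26 genes of the H1, H2A, H2B and H3 classes, whereas all 11 H4 genes with a match had other stems, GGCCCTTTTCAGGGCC in 7 genes, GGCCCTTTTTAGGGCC in 2 and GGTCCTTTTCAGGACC in 2. The lines below give the gene with the highest mean FPKM in each class that has a match, 1 gene for each of the other kinds, the gene with the largest fall (Hist3h2ba) and H2afx, a variant H2A gene that carries a stem-loop but is named outside the clusters. Capitals mark the stem-loop, with 5 bases on each side in lower case, and all lie in 3′ UTR sequence.
Hist1h1c (H1, chr13:23739507-23739532, plus strand): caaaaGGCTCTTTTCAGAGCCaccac
Hist1h2ab (H2A, chr13:23751567-23751592, plus strand): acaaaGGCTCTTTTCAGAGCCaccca
Hist1h2bg (H2B, chr13:23571838-23571863, plus strand): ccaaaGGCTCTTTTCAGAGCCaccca
Hist3h2ba (H2B, chr11:58949344-58949369, plus strand): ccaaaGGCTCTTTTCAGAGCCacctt
Hist1h3c (H3, chr13:23745042-23745067, minus strand): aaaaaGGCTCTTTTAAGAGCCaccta
Hist2h2ac (H2A, chr3:96220413-96220438, minus strand): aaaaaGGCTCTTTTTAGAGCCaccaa
Hist1h4d (H4, chr13:23581945-23581970, plus strand): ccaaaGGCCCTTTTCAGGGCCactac
Hist1h4i (H4, chr13:22040961-22040986, minus strand): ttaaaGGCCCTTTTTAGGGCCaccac
Hist1h4b (H4, chr13:23757361-23757386, plus strand): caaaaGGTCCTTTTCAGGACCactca
H2afx (variant H2A, chr9:44335235-44335260, plus strand): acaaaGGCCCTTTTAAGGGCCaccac

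The other 15 protein-coding members are annotated without a 3′ UTR, so their transcript models end at the stop codon, and 8 have a 3′ UTR in which the pattern was not found (Hist2h2be, Hist2h3b, Hist1h2bq, Hist1h2br, Hist1h3g, Hist1h2bc, Hist1h4a and Hist1h1a). FPKM divides by the annotated length, so levels of genes with coding-only models rest on a shorter length than levels of genes with a full 3′ end.

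Libraries were of similar depth, with 5.843 to 6.274 aligned gigabases read from the most common ratio of coverage to FPKM, and 16138 to 17761 genes had an FPKM above 0.5. Skiv2l itself had an FPKM of 19.3 and 19.1 in Skiv2l ctl and of 10.8 and 8.55 in cKO epidermis (adjusted p = 0.00368). All 6 keratinocyte markers were expressed, and their summed FPKM of 26645 and 28231 in Skiv2l ctl and 24300 and 27664 in cKO epidermis holds opposite changes. Krt14, a basal keratin, had 1736 and 1812 against 7381 and 7312 and was called higher. Lor (828 and 867 against 448 and 444) and Krt1 (12721 and 13157 against 8246 and 9975), of the upper layers, were called lower. Krt5, also a basal keratin (2003 and 2075 against 1761 and 1759), Trp63 (88.9 and 99.9 against 85.7 and 92.7) and Krt10 (9268 and 10220 against 6378 and 8081) were not called. The 6 leukocyte markers summed to 6.71 and 13.2 against 781 and 810, which is S100a8 (0.370 and 1.27 against 775 and 804), a gene that keratinocytes can also express. Of the other leukocyte markers the pan-leukocyte Ptprc was called lower (3.57 and 3.31 against 1.87 and 1.71), and Cd207 was at or below 0.5 in every library. The 5 fibroblast markers summed to 60.6 and 67.6 against 20.9 and 24.3, most of it Dcn (57.0 and 62.7 against 16.9 and 21.4), while Pdgfra went the other way (0.299 and 0.250 against 0.789 and 0.668, not called) and Lum was at or below 0.5 throughout. The 5 tested erythroid markers summed to 134 and 125 against 62.03 and 80.7, and 4 of them were called lower. Melanocyte markers summed to 47.5 and 54.4 against 50.6 and 63.5, and endothelial and skeletal muscle markers to below 1 in every library. The leukocyte, fibroblast and erythroid sums did not overlap between groups, and their part in the results below was not tested. In bulk tissue, fewer cells of a type and less RNA per cell cannot be told apart.

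Histone mRNA levels were lower in cKO epidermis across all classes and in most single genes. The FPKM summed over the 69 genes came to 4540 and 3563 for Skiv2l ctl against 2537 and 2848 for cKO. Both cKO values lay below both controls, and the mean of 2693 ± 220 (SD, n = 2) was 66.5% of the control mean of 4052 ± 691 (SD, n = 2). As a share of all protein-coding FPKM, the members made up 1.40% and 1.07% in Skiv2l ctl and 0.742% and 0.827% in cKO epidermis. A comparison of 2 against 2 libraries cannot give an exact two-sided permutation p below 0.333, and no test was made on sums.

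Each gene was compared with limma on log2(FPKM + 1), a scale on which low genes appear to change less, among the 13609 protein-coding genes that passed 0.5 FPKM in 1 or more libraries, and genes with a Benjamini-Hochberg adjusted p under 0.05 over all of these were called. Of the 65 members tested, 43 were called lower (66.2%), against 25.4% of all tested genes, and 1 was called higher, against 8.99%. In 55 members both cKO libraries were below both Skiv2l ctl libraries (84.6%, against 55.3% of all tested genes), and in 1 both were above (against 18.2%). The median difference in log2(FPKM + 1), cKO minus Skiv2l ctl, was -0.63 over the members and -0.20 over all tested genes. The median of all tested genes was thus shifted downward on the FPKM scale, and the members' median lay 0.43 below it. The FPKM summed over all genes was not lower in cKO libraries (359840 and 367622 in Skiv2l ctl, 373238 and 378802 in cKO).

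That shift depends on the scaling between libraries, so the counts were also taken with other scalings. With libraries scaled to the same median, 18 members were called lower (27.7%, against 11.9% of all tested genes), and the split of all calls moved from 26.1% higher and 73.9% lower to 53.9% higher and 46.1% lower. With quantile normalization 33 members were called lower (50.8%, against 14.1%), and the calls of all genes divided into 46.8% higher and 53.2% lower. Relative to the median of all tested genes, the members' median was 0.40 lower after median scaling and 0.50 lower after quantile normalization. Of the 65 tested members, 17 were called lower with FPKM, TPM, median scaling and quantile normalization alike. They were 7 of 12 tested H3 genes, 4 of 18 H2B, 3 of 13 H4, 2 of 17 H2A and 1 of 5 H1. The H3 genes include Hist2h3c1, whose reads cannot be told apart from those of an overlapping transcript (described below). The same count over all tested genes was not made, so these 17 have no share to stand beside. The calls also depended on the filter on low values: with all 21921 protein-coding genes in the fit, 2 of 67 members were called lower (2.99%, against 4.23% of all tested genes).

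**Figure D1:**
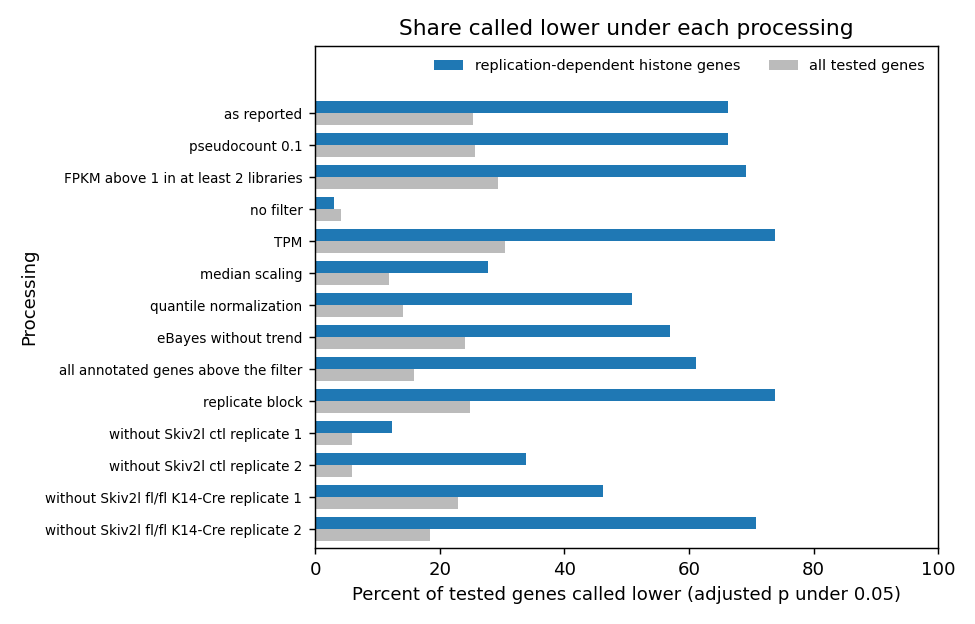
Percent of tested genes called lower at an adjusted p under 0.05 (x axis, from 0 to 100) for the replication-dependent histone genes (blue) and for all tested genes (grey) under each processing (y axis). The blue bar is the longer one in every row except that without a filter on low values, where it is 2.99% against 4.23%.

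**Figure D2:**
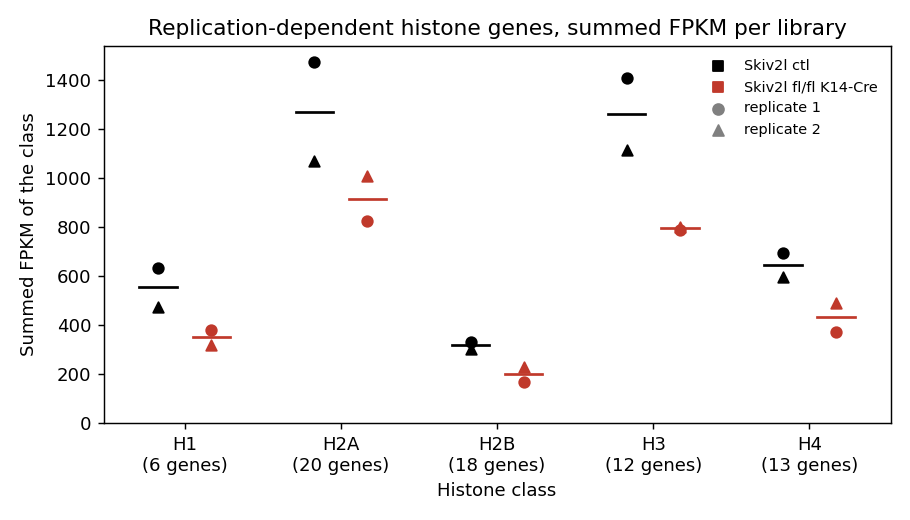
Summed FPKM (y axis, starting at 0) of the genes of each histone class (x axis) in each library, with black for Skiv2l ctl, red for Skiv2l fl/fl K14-Cre (cKO), circles for replicate 1, triangles for replicate 2 and lines for the mean of 2 libraries. In all 5 classes both red points lie below both black points, and the gap is narrowest for H2A, at 1069 in the lower control and 1008 in the higher cKO library. The H2A sums include Hist2h2aa1 and Hist2h2aa2, and without the genes listed at 0 in a library the higher cKO value is 875.

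By class, the linker histones (H1) summed to 633 and 476 FPKM in Skiv2l ctl and to 382 and 317 in cKO epidermis. H3 genes summed to 1408 and 1116 against 790 and 802. The H2B sum, 330 and 305 against 170 and 228, was the smallest of the core histones. Groups did not overlap in any of these classes, and the cKO means were 63.1%, 63.1% and 62.7% of the control means for H1, H3 and H2B. H4 genes summed to 695 and 598 against 371 and 492, which is 66.8% of control. H2A was nearest to overlap, with 1475 and 1069 against 824 and 1008 and a mean of 72.0% of control. This sum includes Hist2h2aa1 and Hist2h2aa2, from which no fold change is read (described below). The 17 H2A genes above 0 in every library summed to 1300 and 1069 against 718 and 875, which is 67.2% of control.

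The make-up of the histone pool did not separate the groups. H2A genes made up 32.5% and 30.0% of the members' FPKM in Skiv2l ctl and 32.5% and 35.4% in cKO libraries. For H3 the shares were 31.0% and 31.3% against 31.1% and 28.2%. H1 took 13.9% and 13.4% against 15.1% and 11.1%, H4 took 15.3% and 16.8% against 14.6% and 17.3%, and H2B took 7.27% and 8.55% against 6.70% and 7.995%. In every class the ranges of the 2 groups overlapped, and no class share differed beyond the spread of these libraries.

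By cluster, the 56 Hist1 genes, all on chromosome 13, carried 90.7% to 94.0% of the members' FPKM in each library. Their sum was 4132 and 3350 in Skiv2l ctl and 2302 and 2598 in cKO epidermis, 65.5% of the control mean. Of the 52 tested, 36 were called lower and none higher, against 25.4% and 8.99% of all tested genes. Split where neighbouring members are more than 100 kb apart, Hist1 fell into 5 groups of genes. The largest, 29 genes within 233 kb that include every Hist1 H1 gene except Hist1h1b, summed to 2409 and 1969 against 1341 and 1437, and 21 of 28 tested genes were called lower. A second group of 19 genes within 122 kb summed to 1391 and 1105 against 786 and 935, and 11 of 18 were called lower. Between these, 5 genes within 8.51 kb summed to 322 and 269 against 172 and 222, and 4 of 5 were called lower. The 3 main groups thus stood at 63.4%, 68.9% and 66.5% of control.

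The Hist2 cluster, 10 genes within 50.3 kb of chromosome 3, did not separate the groups, with 369 and 179 FPKM against 220 and 236. It includes 4 genes listed at exactly 0 in at least 1 library, and the 6 genes above 0 in every library summed to 194 and 158 against 99.2 and 103, without overlap. These 6 include Hist2h3c1, whose reads cannot be told apart from those of an overlapping transcript (described below). Outside these clusters stand the Hist3 genes of chromosome 11, which summed to 34.3 and 29.2 against 13.0 and 11.0, and the single Hist4 gene, Hist4h4, of chromosome 6. Hist4h4 (H4) had an FPKM of 4.52 and 4.59 in Skiv2l ctl and 2.07 and 2.71 in cKO epidermis, a log2 difference of -0.72 (SE 0.14, adjusted p = 0.0114).

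**Figure D3:**
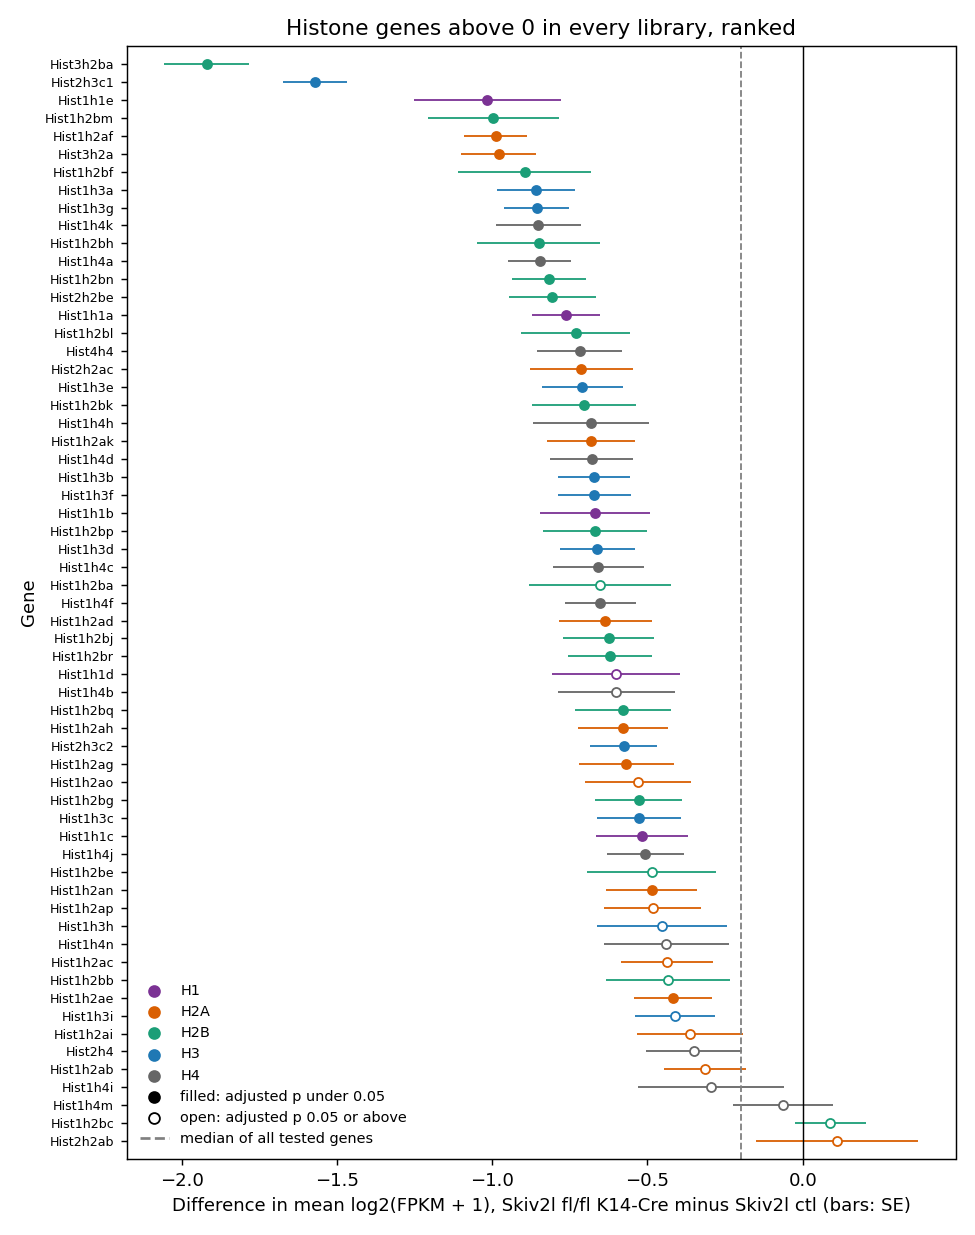
Difference in mean log2(FPKM + 1), Skiv2l fl/fl K14-Cre minus Skiv2l ctl (x axis, bars are the SE), for the 61 tested members above 0 in every library (y axis, ranked), coloured by histone class and filled where the adjusted p was under 0.05. The genes fill the range from -1.92 (Hist3h2ba) to 0.11 (Hist2h2ab), 59 of 61 lie below 0, and the dashed line at -0.20 marks the median of all tested genes.

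The largest fall among the members was that of Hist3h2ba, an H2B gene. Its FPKM was 13.2 and 10.5 in Skiv2l ctl and 2.47 and 2.30 in cKO epidermis, 20.1% of control, with a log2 difference of -1.92 (SE 0.14, adjusted p = 0.000486). Its neighbour Hist3h2a, an H2A gene on the same strand, had 21.04 and 18.7 against 10.5 and 8.71 (-0.98, SE 0.12, adjusted p = 0.00278). Both Hist3 genes were called lower with each of the 4 scalings. Part of the Hist3h2a exon (708 of 2146 bases) is shared with Trim17 on the same strand, whose FPKM was 0.379 to 1.29 in the 4 libraries.

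Hist2h3c1, an H3 gene, had the second largest fall, from 48.2 and 41.1 to 14.3 and 14.3 (log2 difference -1.57, SE 0.10, adjusted p = 0.000372). All 1825 of its exonic bases lie within exons of Gm20634, a processed transcript annotated on the same strand. In both controls Gm20634 was listed at 0, and it had 26.1 and 20.6 in the cKO libraries, so reads of one cannot be told apart from reads of the other in this table. Hist2h3c2, which no annotated gene overlaps but which shares 62.6% of its 75-base runs with genes such as Hist2h3c1, had 67.0 and 55.6 against 39.8 and 41.4 (-0.58, SE 0.11, adjusted p = 0.0111).

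Among the H1 genes, which encode the linker histones, Hist1h1c was the most abundant member in all 4 libraries. Its FPKM was 288 and 221 in Skiv2l ctl and 191 and 162 in cKO epidermis (log2 difference -0.52, SE 0.15, adjusted p = 0.041). Hist1h1b had 123 and 94.1 against 77.6 and 58.0 (-0.67, adjusted p = 0.0316), and Hist1h1a had 99.2 and 82.5 against 54.4 and 51.4 (-0.76, adjusted p = 0.00437). Hist1h1e showed the largest fall of the class, from 91.0 and 58.9 to 42.4 and 30.1 (-1.02, SE 0.24, adjusted p = 0.0217). In all 4 both cKO libraries were below both controls, as they were in 55.3% of all tested genes. The 2 controls of Hist1h1e lay far apart, and 496 of its 1930 exonic bases are shared with Hist1h2be on the same strand. Hist1h1d, with 31.6 and 19.9 against 17.1 and 15.3, was not called (adjusted p = 0.0659). The testis-specific Hist1h1t was at 0.429 and 0.245 against 0.185 and 0.213, under the threshold in every library.

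Of the H2A genes, whose protein pairs with H2B in the nucleosome, 9 of 17 tested were called lower, against 25.4% of all tested genes. Hist1h2ab, the highest in the class, had 180 and 147 against 119 and 143 and was not called (-0.31, SE 0.13, adjusted p = 0.112). Hist1h2ak had 170 and 141 against 85.9 and 107 (-0.68, adjusted p = 0.0154), and Hist1h2ah had 163 and 130 against 87.9 and 107 (-0.58, adjusted p = 0.0268). The largest fall of an H2A gene above 0 in every library was that of Hist1h2af, from 137 and 120 to 61.2 and 67.3, 49.95% of control (-0.99, SE 0.10, adjusted p = 0.00147). In all 4 genes both cKO libraries were below both controls, as they were in 55.3% of all tested genes. Hist1h2aj and Hist1h2al are annotated as pseudogenes and were not tested, and had 80.8 and 65.0 against 46.7 and 56.5, and 5.17 and 4.52 against 2.83 and 2.64.

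Of the 18 H2B genes, 13 were called lower, against 25.4% of all tested genes. Hist1h2bg was the highest, with 59.7 and 52.3 against 33.8 and 43.7 (-0.53, SE 0.14, adjusted p = 0.0317). Hist1h2bn had 48.6 and 43.7 against 23.3 and 28.4 (-0.82, adjusted p = 0.00467), Hist1h2bj had 31.7 and 28.7 against 16.5 and 22.2 (-0.63, adjusted p = 0.0225), and Hist1h2bm had 14.7 and 13.0 against 4.94 and 8.29 (-0.996, SE 0.21, adjusted p = 0.0163). Hist1h2bc stood apart from the class. Its FPKM was 21.6 and 21.6 in Skiv2l ctl and 20.8 and 25.5 in cKO epidermis, so that the groups overlapped (log2 difference 0.09, SE 0.11, adjusted p = 0.566). Hist1h2bc is 1 of 5 members above 0 in every library that are annotated with more than 1 exon, all H2B genes, and the other 4 had values below 0. Of these, Hist1h2bp, Hist1h2bq and Hist1h2br were called lower (-0.67, -0.58 and -0.62), and Hist1h2be was not (-0.49, adjusted p = 0.116).

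Of the 12 H3 genes, 9 were called lower, against 25.4% of all tested genes. No other class had as large a share of its tested members called lower, apart from H1 with 4 of 5. Hist1h3i, the highest, had 197 and 153 against 128 and 132 and missed the threshold (-0.41, SE 0.13, adjusted p = 0.0517). Hist1h3c had 172 and 132 against 108 and 100 (-0.53, adjusted p = 0.0289), and Hist1h3e had 176 and 138 against 90.4 and 99.5 (-0.71, adjusted p = 0.0107). All 3 were lower in both cKO libraries than in either control, as were 55.3% of all tested genes.

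H4 genes code for 1 and the same core histone, and 8 of 13 were called lower, against 25.4% of all tested genes. Hist1h4d had 110 and 101 against 57.7 and 74.4 (-0.68, SE 0.13, adjusted p = 0.0125), and Hist1h4k had 89.6 and 78.4 against 40.6 and 52.1 (-0.85, SE 0.14, adjusted p = 0.0066). Hist1h4n, with 92.0 and 68.7 against 48.8 and 69.8, overlapped between groups and was not called (adjusted p = 0.137). Hist1h4m showed no separation either, with 70.4 and 60.8 against 53.5 and 73.2 (-0.06, SE 0.16, adjusted p = 0.774), and its sign turned with median scaling (0.15).

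Near the threshold of 0.5 FPKM, the members just inside in their highest library were Hist2h2be (2.08), Hist1h2be (2.97) and Hist1h2ba (4.25), and the 2 outside were Hist1h1t (0.429) and Hist1h2aa (0.0228). No member lay close to the threshold from above. Hist1h2ba and Hist1h2aa form a pair of genes known for testis-specific variants. Hist1h2ba had 4.25 and 2.82 against 1.38 and 2.41 (adjusted p = 0.0711), and Hist1h2aa was listed at 0 in 3 libraries.

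The largest positive differences belonged to 2 neighbouring H2A genes of Hist2 whose transcripts share sequence with each other. In both controls Hist2h2aa1 was listed at 0, and it had 13.6 and 54.7 in the cKO libraries, and it is the 1 member called higher. Hist2h2aa2 had 175 and 0 in Skiv2l ctl and 92.4 and 78.8 in cKO libraries. In both genes, 100% of the 75-base runs of the transcript occur in another annotated gene, and each is covered on the opposite strand by an antisense gene. Exons of Gm20634, the transcript that contains Hist2h3c1, also cover 90.3% of Hist2h2aa1 on its own strand. Gm20633, antisense to Hist2h2aa1, had 38.1 and 30.0 against 1.16 and 0.540, and Gm20632, antisense to Hist2h2aa2, had 8.69 and 35.5 against 5.75 and 10.1. The sources used here do not say whether strand was used in the counting, and how reads were divided among these genes cannot be told from the tables, so no fold change is read from them. Hist2h3b (0 and 15.2 against 12.8 and 0) and Hist2h2bb (0 and 5.25 against 2.09 and 0) were also listed at 0 in a library of each group, and both lie within exons of Gm20628 on the opposite strand, which had 39.6 and 30.4 against 18.7 and 22.8. Without these 4 and Hist1h2aa, 43 of 61 tested members were called lower (70.5%, against 25.4% of all tested genes) and none was called higher. Their summed FPKM, with untested members included, was 4365 and 3543 against 2416 and 2714, 64.9% of control. Hist2h2ab, which an antisense gene (Gm15444) overlaps by 303 of 444 bases, had 2.95 and 6.02 against 4.64 and 4.74 (adjusted p = 0.757).

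Sequence is shared more widely among the members. At least one 75-base run of 64 of the 69 genes also occurs in the transcript of another gene, and the median share of such runs was 45.7%. It was largest for H2A (median 71.5% per gene) and smallest for H1 (0.735%), so values of single H2A, H3, H2B and H4 genes depend on how the authors' counting divided reads among copies. Genes with no such run were Hist2h2be, Hist2h4, Hist1h1b, Hist1h1a and Hist1h1t. Of the 4 tested, Hist2h2be (2.08 and 1.96 against 0.620 and 0.837), Hist1h1b and Hist1h1a were called lower, and Hist2h4 had 16.01 and 13.2 against 9.77 and 12.8 (adjusted p = 0.126). Exons of 26 members overlap another annotated gene, in 19 of them a predicted miRNA gene on the opposite strand. Among the 42 tested members that overlap none, 32 were called lower (76.2%, against 25.4% of all tested genes) and the median difference was -0.67. No H2A gene is among these, since all 20 overlap another gene. H2A had 9 of 17 tested genes called lower, so the share without overlaps also reflects the loss of that class.

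Libraries of the same genotype also differed. The first Skiv2l ctl library was above the second in 56 of 65 tested members, whereas the first cKO library was above the second in 15. This order was not counted over all tested genes, so whether it is particular to the members is not known. The order within cKO libraries went with class. The first was above the second in 5 of 5 H1 genes and 5 of 12 H3 genes but in 3 of 17 H2A genes, 2 of 18 H2B genes and 0 of 13 H4 genes. The count of calls rested in part on 1 control: without the first Skiv2l ctl library 8 members were called lower (12.3%, against 5.92% of all tested genes), and without the second 22 were (33.8%, against 5.95%). Leaving out the first cKO library gave 30 members called lower (46.2%, against 23.0% of all tested genes), and leaving out the second gave 46 (70.8%, against 18.4%).

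On the log2(FPKM + 1) scale, where low genes appear to change less, the median difference was similar at all levels of expression. Divided by mean FPKM, the 20 lowest tested members above 0 in every library had a median difference of -0.66, the 21 in the middle -0.64 and the 20 highest -0.62. The summed FPKM of these groups stood at 60.3%, 63.2% and 65.9% of control. Members with a stem-loop in the annotated 3′ UTR had a median of -0.64 (41 genes), the 7 with a 3′ UTR in which none was found had -0.76, with 6 called lower, and the 13 with no annotated 3′ UTR had -0.65. The 24 genes whose annotated transcript runs more than 50 bases past the stem-loop had a median of -0.66, with 19 called lower. The 17 whose transcripts end within 50 bases of it had -0.63, with 10 called lower. Of all tested genes, 25.4% were called lower. Across the 61 members the cKO mean ranged from 20.1% to 107% of the control mean with a median of 62.6%, and 48 of them lay between 50% and 80%.

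**Figure D4:**
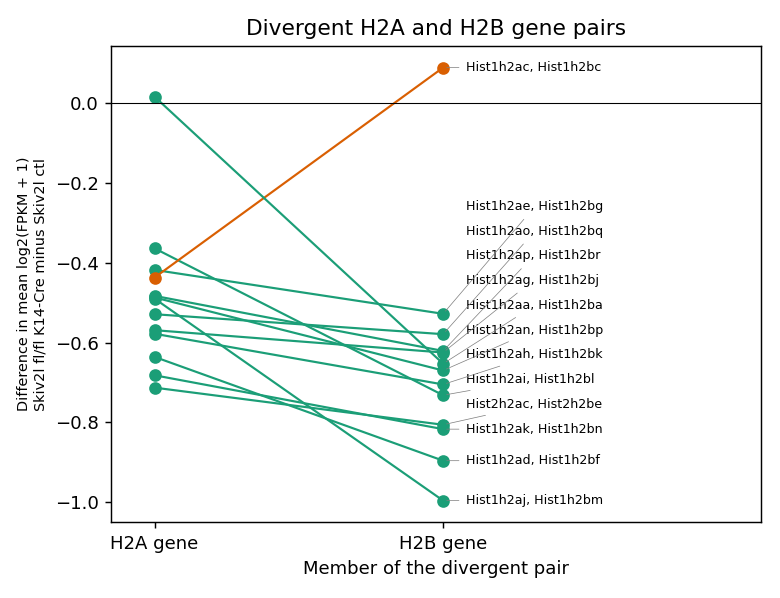
Difference in mean log2(FPKM + 1), Skiv2l fl/fl K14-Cre minus Skiv2l ctl (y axis), of the H2A gene (left) and the H2B gene (right) of 13 divergent pairs, joined by a line that is green where the H2B value is the lower one and orange otherwise. In 12 of 13 pairs the line goes down from H2A to H2B, and the pair of Hist1h2ac and Hist1h2bc is the 1 that goes up.

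Many H2A and H2B genes lie head to head, with a shared promoter between them. In 13 such pairs the annotated starts were 176 to 306 bases apart (median 251) on opposite strands. Both genes were lower in cKO epidermis in 11 pairs, both were called lower in 7 and 1 of the pair was in 4. Among all tested genes, taken singly, 71.9% were lower in direction and 25.4% were called lower. The H2A gene had the higher mean FPKM in 10 of the 13, and the median ratio of H2A to H2B over all 13 was 3.5. Annotated lengths within a pair can differ and enter this ratio, as with 520 bases for Hist2h2ac and 2620 for Hist2h2be (ratio 28.6). The H2B gene had the more negative log2 difference in 12 of 13 pairs, with medians of -0.67 for H2B and -0.49 for H2A. The 12 include the pair of Hist1h2aa, which was listed at 0 in both controls and so could not fall. They also include the pair of Hist1h2aj, an untested pseudogene. Genes of a pair share their libraries and most share sequence with other copies, so this count is a description. The exception was the pair of Hist1h2ac (10.7 and 9.43 against 6.22 and 8.26, -0.44, adjusted p = 0.0649) and Hist1h2bc, the H2B gene described above whose groups overlapped.

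Promoters, 250 bases before to 50 after the start, were taken from RefSeq (GRCm38.p6) for 61 of the 69 members, and 3 motifs were searched on both strands. The motifs were the core promoter element TATAAA, the pentamer CCAAT that the factor NF-Y is known to bind and the octamer ATTTGCAT that is known from H2B promoters, none of which contains another. CCAAT was found in all 49 promoters of the H1, H2A, H2B and H3 classes (5, 18, 16 and 10 genes) and in 3 of 12 H4 promoters, against 37.4% of all 32817 promoters of this length. TATAAA was found in 55.7% of the members' promoters against 13.6%, and ATTTGCAT in 7 of 18 H2A and 6 of 16 H2B promoters and in none of the H1, H3 and H4 promoters, against 1.74%. Windows of the 2 genes of a divergent pair overlap, so these counts are not independent. The members with and without each motif had similar median differences, -0.66 (46 genes) and -0.60 (9 genes) for CCAAT, -0.65 (32) and -0.63 (23) for TATAAA, and -0.58 (11) and -0.66 (44) for ATTTGCAT. The promoter of Hist1h2bg, shown as that of the highest H2B gene and of its divergent partner Hist1h2ae, and that of Hist3h2ba, shown as that of the largest fall, are given 5′ to 3′ with motif matches in capitals.
Hist1h2bg (chr13:23571150-23571449, plus strand): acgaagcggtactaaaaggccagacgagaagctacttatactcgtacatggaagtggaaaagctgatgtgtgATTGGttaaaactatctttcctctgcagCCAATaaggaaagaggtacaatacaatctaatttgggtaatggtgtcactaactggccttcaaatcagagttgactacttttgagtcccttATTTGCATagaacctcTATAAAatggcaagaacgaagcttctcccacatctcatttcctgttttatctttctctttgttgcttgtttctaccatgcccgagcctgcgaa
Hist3h2ba (chr11:58948661-58948960, plus strand): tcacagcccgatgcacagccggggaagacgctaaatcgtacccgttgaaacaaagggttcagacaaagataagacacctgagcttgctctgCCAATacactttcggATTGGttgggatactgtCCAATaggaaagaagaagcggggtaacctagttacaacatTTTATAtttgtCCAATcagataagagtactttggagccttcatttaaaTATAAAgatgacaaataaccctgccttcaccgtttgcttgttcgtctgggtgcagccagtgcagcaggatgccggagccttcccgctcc

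**Figure D5:**
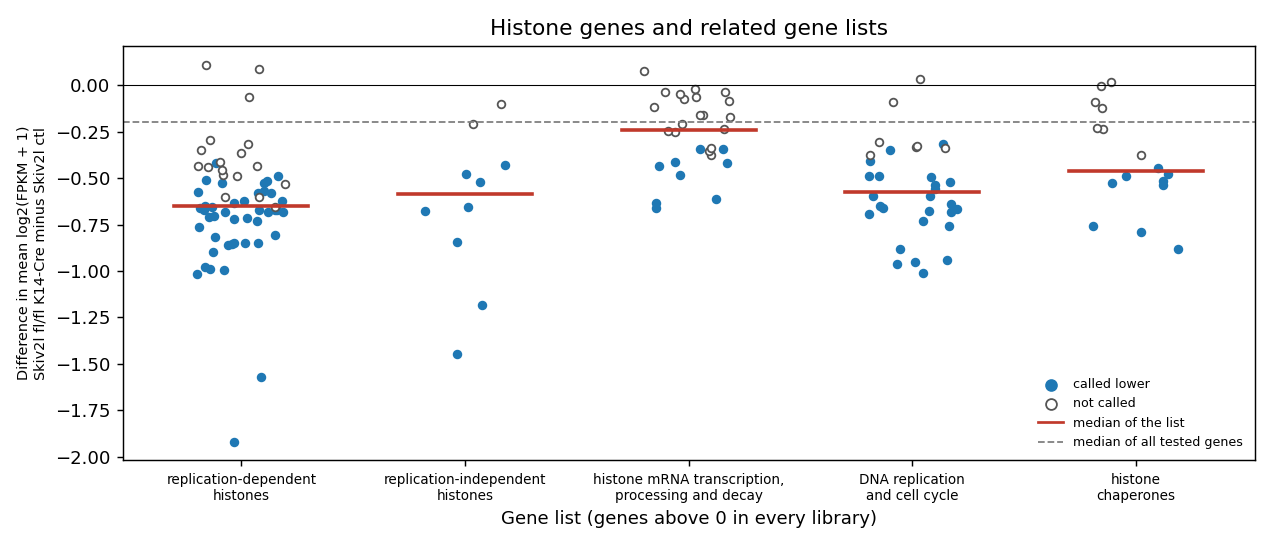
Difference in mean log2(FPKM + 1), Skiv2l fl/fl K14-Cre minus Skiv2l ctl (y axis), for the genes above 0 in every library of the replication-dependent histones and 4 related lists (x axis), with filled points for genes called lower, open points for genes not called, red lines for list medians and a dashed line at -0.20 for the median of all tested genes. The medians of the replication-independent histones (-0.59), the DNA replication list (-0.58) and the chaperones (-0.46) lie below the dashed line, and that of the histone mRNA factors (-0.24) lies near it.

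Genes that act with the clustered histones were described from 4 lists. Replication-independent histones, which replace the clustered ones outside S phase, had 8 of 12 tested genes called lower (66.7%, against 25.4% of all tested genes) and none higher. H1f0, the linker histone of cells that have stopped dividing, went from 135 and 149 to 53.0 and 49.9 (-1.45, SE 0.09, adjusted p = 0.000308), and H2afy2, a macroH2A gene, from 6.48 and 6.70 to 2.36 and 2.32 (-1.18, adjusted p = 0.0011). The H3.3 genes H3f3a (317 and 308 against 214 and 222) and H3f3b (215 and 199 against 138 and 124) were the most abundant of this list and were called lower by 0.52 and 0.65 (adjusted p = 0.00553 and 0.00426). H2afx, whose stem-loop is shown above, had 72.1 and 62.3 against 42.6 and 40.5 (-0.68, adjusted p = 0.00471). Lower values were thus not limited to genes of the clusters.

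In the list of factors for transcription, 3′ processing and decay of histone mRNA, 9 of 28 tested genes were called lower, a share (32.1%) near that of all tested genes (25.4%), and the median difference was -0.24. The list had 32 names, of which the symbols Ars2, Symplekin, Zcchc11 and Zcchc6 are not used in the tables. Slbp, which binds the stem-loop, had 12.5 and 10.3 against 5.89 and 7.88 (-0.66, SE 0.16, adjusted p = 0.0235), the largest difference of the list. Ncbp2, a cap-binding subunit, had 9.02 and 8.63 against 5.39 and 5.30 (-0.63, adjusted p = 0.00623). Npat, the coactivator of histone gene transcription, had 6.96 and 7.58 against 4.77 and 6.41 and was not called (adjusted p = 0.12). The exonuclease gene Eri1 (7.07 and 6.56 against 5.69 and 6.31), the U7 snRNP gene Lsm11 (2.16 and 2.22 against 1.79 and 2.25) and the abundant Snrpb (59.1 and 56.1 against 51.7 and 50.6) and Upf1 (52.5 and 49.5 against 46.9 and 51.8) were not called either, with adjusted p of 0.287, 0.648, 0.145 and 0.696, and their differences of -0.16, -0.08, -0.17 and -0.05 turned sign with median scaling.

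DNA replication and cell cycle genes had 25 of 32 tested genes called lower (78.1%, against 25.4% of all tested genes) and none higher (against 8.99%), with a median difference of -0.58. Uhrf1, a chromatin factor of S phase, had 28.8 and 33.2 against 16.2 and 13.5 (-1.01, SE 0.12, adjusted p = 0.00256), and E2f1, a transcription factor of S-phase genes, had 5.76 and 6.08 against 2.71 and 2.41 (-0.96, adjusted p = 0.00254). The sliding clamp gene Pcna had 39.9 and 40.3 against 27.8 and 28.8 (-0.49, adjusted p = 0.00699), the proliferation marker Mki67 had 26.9 and 24.4 against 16.7 and 15.5 (-0.64, adjusted p = 0.00514), and Top2a had 29.5 and 29.7 against 19.6 and 21.9 (-0.50, adjusted p = 0.0107). Both cKO libraries were below both controls in 31 of the 32 genes (96.9%, against 55.3% of all tested genes). Histone chaperones, 4 of which also belong to the replication list, had 9 of 16 called lower (56.2%, against 25.4%). Mcm2 (22.7 and 26.1 against 13.3 and 12.2, -0.88, adjusted p = 0.00247) and Asf1a (11.3 and 12.2 against 7.22 and 5.62, -0.79, adjusted p = 0.00775) differed most, whereas Nap1l1 (42.5 and 46.6 against 37.5 and 37.6, adjusted p = 0.077) and Npm1 (147 and 156 against 149 and 153, adjusted p = 0.967), the most abundant, were not called. The part of these genes in the lower histone values was not tested.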

How the data were processed

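Epidermal RNA from 4 pups, 2 per genotype, was sequenced, and the tables deposited for each library give FPKM, TPM and coverage per gene as the authors computed them (FPKM and TPM scaled per library by length and mapped reads, coverage as mean read depth). The labels name GRCm38. The aligner, strandedness and poly(A) or rRNA selection are not given in the sources used here.

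FPKM of repeated rows was summed per gene ID. All but 29 IDs matched GENCODE M21, and 54029 of 54752 had the same coordinates. Of 21921 protein-coding genes, 13609 had FPKM above 0.5 in at least 1 library and were tested with limma 3.58.1 (R 4.3.3, eBayes with trend, two-sided) on log2(FPKM + 1), with Benjamini-Hochberg adjustment over all of them and calls at 0.05. The script was tested on simulated data. Sums and medians were not tested.

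The members and lists were chosen with earlier results of these data known. Named members were the 3 highest of each class, the 6 largest rises and falls, those nearest 0.5 FPKM and all of Hist3 and Hist4. From each other list the 2 largest differences and 2 highest levels were named, with Slbp, Npat, Eri1, Lsm11, Mki67 and Pcna. Hist1h1d, Hist1h2ac, Hist1h2aj, Hist1h2al, Hist1h2bp, Hist1h2bq, Hist1h2br, Hist2h3c2, Hist2h4, H2afx and the single marker genes were named after their values were seen. Alternatives were another pseudocount, other filters, TPM, median and quantile scaling, no variance trend, all annotated genes, a replicate block and leaving out each library. Nothing says whether the pups of a genotype share a litter or a preparation batch. Coverage gave the depth and no test. The value of 1 cell type marker is not reported here.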

Additional observations from a re-analysis of the deposited data

How the results depend on the processing

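With 2 libraries per genotype, 1 control decided many calls, and depth in read counts is unknown. Of 43 members called lower, 2 were called without the filter on low values and 18 with median scaling, and leaving out 1 library, with the lone library of its group assumed to vary like the other group, gave 8 to 46 (8 without Skiv2l ctl replicate 1). Members called higher (1 as reported) were 0 without the filter, and 0 in both subsets chosen after seeing the data (without members listed at 0, and only members that overlap no other gene), and 1 to 2 with a library left out. With a replicate block 48 were called lower, including all 43. The numbers name different pups, whose deviations did not correlate positively, so no pairing was used.

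Genes called lower without the filter were 5 of the replication-independent histones (8 as reported), 3 of the histone mRNA factors (9), 4 of the replication list (25) and 2 of the chaperones (9). Median scaling gave 2, 15 and 5 for the last 3 lists, and quantile normalization gave 4 for the mRNA factors and 15 for replication. The share of all tested genes called lower fell too, from 25.4% as reported. It was 4.23% without the filter, 11.9% with median scaling and 14.1% with quantile normalization. Leaving out 1 library gave 3 to 8, 0 to 8, 5 to 22 and 1 to 8 for the 4 lists, and 0 to 1 replication-independent histones called higher.

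The log2 ratio of the Hist2 sum (-0.27) ran from -0.70 to 0.35 with a library left out, positive without Skiv2l ctl replicate 1. That of Hist3 (-1.40) was -2.32 without Hist3h2a, and that of Hist4 (-0.93) was -0.65 with quantile normalization. The sums of all members, of each class and of each cluster kept their direction with TPM, median scaling and quantile normalization.

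Sign turned only for genes not called. With median scaling the differences were 0.15 (Hist1h4m), 0.041 (Snrpb), 0.025 (Eri1), 0.061 (Lsm11), 0.16 (Upf1) and 0.21 (Npm1), and with quantile normalization 0.033 (Eri1), 0.12 (Lsm11) and 0.003 (Upf1). With a library left out they ran from -1.03 to 6.43 (Hist2h2aa2, the upper value against a control listed at 0 and so no fold change), -0.30 to 0.53 (Hist2h2ab), -0.051 to 0.23 (Hist1h2bc), -0.29 to 0.16 (Hist1h4m), -0.19 to 0.025 (Lsm11), -0.12 to 0.022 (Upf1) and -0.046 to 0.036 (Npm1). The cause of these changes was not tested.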
